A study of Mus musculus with 6 samples.

Results

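The 39 Hox genes of the mouse were followed in smooth muscle and epithelium sorted from embryonic tracheas. Members were all rows of the gene count table whose symbol is Hox, a cluster letter from a to d and a number, which gave 39 of 23478 genes. Hox genes encode homeodomain transcription factors and lie in 4 clusters, in which genes of the same number are paralogs. In the embryo they are switched on in the order in which they lie, low numbers first and furthest towards the head, and the set of Hox genes that a cell expresses is a record of its position along the body axis. Retinoic acid activates the low-numbered genes, Polycomb complexes keep silent genes closed and trithorax proteins keep active ones open. Hox proteins bind DNA together with cofactors of the PBX, MEIS and PKNOX families. In the airway, Hoxa5 is known for its part in forming the trachea and lung.

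Tracheas were taken at embryonic day 13.5 from embryos of the genotype Bmp4 f/f; gamma SMA eGFP, and the file headers call all 6 libraries controls. Both populations thus carried floxed Bmp4 alleles and the reporter, and the labels name no Cre and no treatment other than dissociation. The cells were stained for Epcam, an epithelial surface protein, and sorted into muscle (3 libraries) and epithelium (3 libraries). The file headers mark the muscle libraries as GFP (positive for the eGFP reporter named after gamma smooth muscle actin) and the epithelial ones as APC+ (the Epcam stain), so mesenchyme without the reporter was the target of neither sort. They also give muscle and epithelium of replicate 1 one shared identifier, and of replicate 2 another. The labels do not say whether replicates came from separate litters or pools, and p-values measure only the spread between these libraries.

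The genes behind the sort were as labelled in all 6 libraries. Actg2 had 2436, 403 and 2783 CPM (counts scaled to a common library size, with TMM factors) in muscle replicates 1 to 3 and 1.60 to 2.47 in epithelium. Epcam had 0.65 to 2.19 CPM in muscle and 541 to 710 in epithelium. Library totals ranged from 11847432 to 54848820 counts. Olfactory and vomeronasal receptor genes, which neither population should use, summed to 883, 1817 and 636 CPM of the library total in muscle replicate 2, epithelium replicate 2 and epithelium replicate 3, against 7.26 to 37.8 in the other 3. Such counts are called background counts here. Of 14 genes of fibroblasts and mesenchyme, 11 were higher in muscle, and their sum in epithelium replicates 1 to 3 was 419, 2338 and 308 CPM against 9790 to 12530 in muscle. Of other lists, 5 of 16 cartilage markers, 2 of 12 endothelial and 2 of 12 skeletal muscle markers were higher in muscle, and 2 of 8 mesothelial and 3 of 7 oesophageal epithelium markers tested in epithelium, beside 6.58% and 4.11% of all genes tested in these directions. Of 14 neural crest, neural and glial markers tested 1 went each way, and edgeR, DESeq2 and limma-voom called no immune or erythroid marker (none had an unadjusted p under 0.05 in edgeR).

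RefSeq (GRCm38.p6) gives start-site windows for 22 of the 39 genes, among them 3 of the 6 that differed between the populations (Hoxa2, Hoxa3 and Hoxb4) and Hoxb1. Their last 170 bases before the start are shown because Hox genes are regulated by Hox proteins, their cofactors and retinoic acid, and because Hoxa2 and Hoxa3 lay on the muscle side and Hoxb1 on the epithelial side of the comparison. Capitals mark every match, on either strand, to TGATNNAT (a PBX-HOX site), TGACAG (a MEIS or PKNOX site) or AGGTCA (a retinoic acid receptor half-site). The window of Hoxa2 lies at chr6:52164832-52165001 (minus strand), Hoxa3 at chr6:52213068-52213237 (minus), Hoxb4 at chr11:96318097-96318266 (plus) and Hoxb1 at chr11:96365588-96365757 (plus). The starts are those of RefSeq. In the GENCODE M21 annotation Hoxa3 spans chr6:52169062-52213336, so its window lies inside that span, downstream of the GENCODE start. The last bases of the Hoxb1 window also lie inside its GENCODE span (chr11:96365752-96368256).
Hoxa2: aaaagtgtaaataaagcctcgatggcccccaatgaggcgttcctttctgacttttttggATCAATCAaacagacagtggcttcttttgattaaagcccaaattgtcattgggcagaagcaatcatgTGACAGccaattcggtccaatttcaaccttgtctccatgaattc
Hoxa3: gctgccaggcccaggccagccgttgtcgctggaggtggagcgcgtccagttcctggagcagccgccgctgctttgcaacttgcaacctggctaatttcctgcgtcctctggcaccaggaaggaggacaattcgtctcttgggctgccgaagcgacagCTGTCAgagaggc
Hoxb4: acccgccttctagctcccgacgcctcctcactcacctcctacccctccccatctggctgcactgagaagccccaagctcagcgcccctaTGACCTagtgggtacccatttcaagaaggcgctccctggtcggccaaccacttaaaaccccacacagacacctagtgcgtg
Hoxb1: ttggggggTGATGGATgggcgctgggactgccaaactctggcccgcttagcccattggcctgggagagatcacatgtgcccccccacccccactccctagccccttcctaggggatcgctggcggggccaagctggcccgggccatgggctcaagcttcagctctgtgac

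In Hoxb1 the PBX-HOX letters TGATGGAT stood 162 to 155 bases before the start, in a stretch known as the gene's own autoregulatory region in the hindbrain. Hoxa2 held ATCAATCA, the same motif on the other strand, 111 to 104 bases before the start and TGACAG 44 to 39 bases before it. Over the 250 bases before each start, TGATNNAT matched in 4 of 24 Hox windows (Hoxa2, Hoxb1, Hoxb8 and Hoxd11) and in 7.7% of all 32851 windows. TGACAG matched in 2 Hox windows (Hoxa2, Hoxa3) and in 15.9% of all. AGGTCA matched in 6 (Hoxb4, Hoxc4, Hoxd3, Hoxd4, Hoxd8 and Hoxd10) and in 14% of all. A match describes letters and not binding.

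The expressed Hox genes were those of low paralog number. Of the 15 members numbered 1 to 5, 13 reached a mean of 5 CPM in muscle or epithelium, and of the 24 members numbered 6 to 13 none did. The exceptions among the low numbers were Hoxd1, at 0 to 1.05 CPM, and Hoxd4, at 0 to 4.64 CPM. The members numbered 6 to 13 together had 4.67, 48.0 and 5.51 CPM in muscle replicates 1 to 3 against 4.38, 48.9 and 25.4 CPM in epithelium replicates 1 to 3. The 3 libraries that were high were those with many background counts. In the other 3 libraries the summed level went from 45.6, 86.8 and 32.7 CPM at paralog number 5 to 1.97, 3.41 and 3.38 CPM at number 6 (muscle replicates 1 and 3 and epithelium replicate 1).

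**Figure D1:**
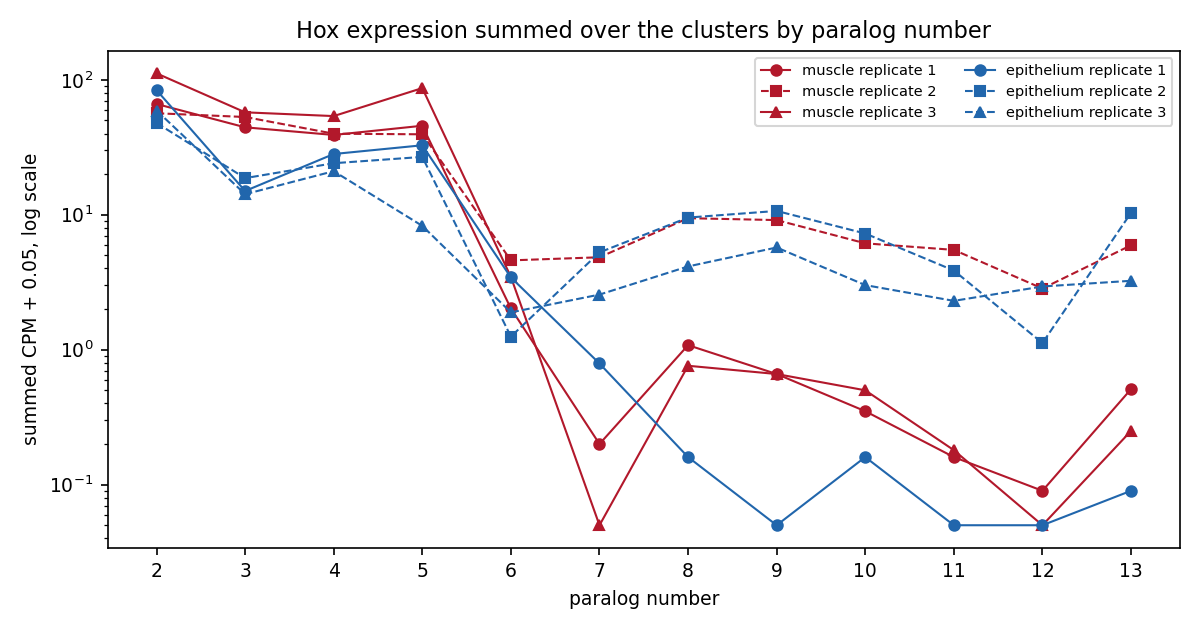
Summed CPM of all Hox genes of one paralog number (vertical axis, log scale, 0.05 added) against the paralog number from 2 to 13, with one line per library, red for muscle and blue for epithelium, dashed for the 3 libraries with many background counts. All 6 lines drop after number 5, to between 1.2 and 4.54 CPM at number 6, and only the dashed lines stay above 1 CPM from number 9 to 13.

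The highest of the high-numbered genes in the 3 libraries with few background counts was Hoxb6, with 1.78 and 3.01 CPM in muscle replicates 1 and 3 and 3.38 in epithelium replicate 1. In the remaining libraries Hoxb6 had 1.60 CPM in muscle replicate 2, no count in epithelium replicate 2, which allows up to 0.200 CPM, and 0.60 CPM in epithelium replicate 3. Hoxc8 reached 8.13 and 8.48 CPM in muscle replicate 2 and epithelium replicate 2 and had 1.03, 0.56 and 0 CPM in muscle replicates 1 and 3 and epithelium replicate 1. The median member numbered 6 to 13 had 1.22, 0.74 and 0.69 CPM in muscle replicate 2, epithelium replicate 2 and epithelium replicate 3, against 0.04, 0.05 and 0 in muscle replicates 1 and 3 and epithelium replicate 1. Per kilobase of exon it was 0.68, 0.38 and 0.37 in the former 3, where the median receptor gene had 0.08, 0.16 and 0.08 CPM per kilobase. The median high-numbered Hox gene thus stood above the median receptor gene in those libraries. In CPM it stood under the 95th percentile of receptor genes, which was 1.995, 3.54 and 1.43 in the same libraries. The part of background counts in the level of high-numbered Hox genes was not tested. Hoxa11, Hoxa13, Hoxb7, Hoxb8, Hoxc11 and Hoxd13, like Hoxd1, had too few counts to be tested. Hoxa6, Hoxa7, Hoxa9, Hoxa10, Hoxb6, Hoxb9, Hoxb13, Hoxc6, Hoxc8, Hoxc9, Hoxc10, Hoxc12, Hoxc13, Hoxd8, Hoxd9, Hoxd10, Hoxd11 and Hoxd12, with Hoxd4, were tested at a mean under 5 CPM in both populations and none was called in edgeR, DESeq2 or limma-voom.

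Between the populations, 32 of the 39 members could be tested, and 6 were higher in muscle: Hoxa2, Hoxa3, Hoxa4, Hoxb3, Hoxb4 and Hoxb5. They were 2.51 to 9.76 times as high as in epithelium. None was higher in epithelium in edgeR's quasi-likelihood test or in limma-voom, where DESeq2 called 1 (Hoxc4), the 1 member with an unadjusted p under 0.05 in that direction in edgeR. The 6 make 18.8% of the tested members, where the background over all 19375 genes tested was 6.58% for muscle and 4.11% for epithelium (10.7% together). The muscle and epithelium libraries did not overlap in 8 of 32 members (25.0%), a share near the 26.9% of all genes tested. The median log2 fold change was -0.09 over the 32 members and -0.10 over all genes tested, and 19 of the 32 had a mean under 5 CPM in both populations. In bulk libraries fewer cells that express a gene and less RNA per cell cannot be told apart. The count of 6 fell to 3 (Hoxa2, Hoxa3 and Hoxb5) without muscle replicate 1, without muscle replicate 3 and without epithelium replicate 3. It was 3 (Hoxa2, Hoxa4 and Hoxb5) over only the 3 libraries with few background counts, where the lone epithelial library is assumed to vary like those of muscle.

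**Figure D2:**
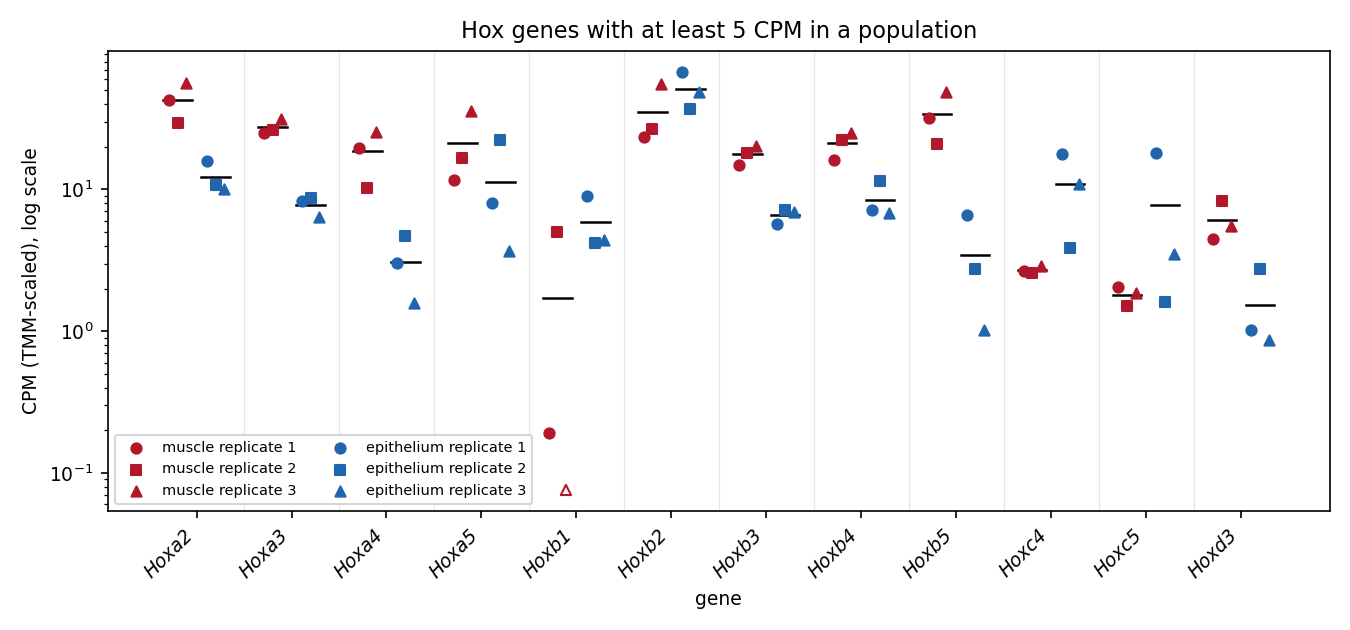
CPM (vertical axis, log scale) of 12 of the 13 Hox genes with a mean of at least 5 CPM in a population, in each muscle (red) and epithelium (blue) library, ordered by cluster and number, with black lines at group means and an open symbol at the level of 3 counts for a library with 3 counts or fewer. The red symbols lie above all blue ones in Hoxa2, Hoxa3, Hoxa4, Hoxb3, Hoxb4, Hoxb5 and Hoxd3, and below all of them in Hoxc4.

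In the Hoxa cluster (chromosome 6, GRCm38), genes 2, 3 and 4 were higher in muscle. Hoxa2 lies at chr6:52162417-52164831, Hoxa3 at chr6:52169062-52213336 and Hoxa4 at chr6:52189671-52191753, within the span of Hoxa3, all on the minus strand. Hoxa2, which patterns the hindbrain and second branchial arch, had 42.7, 29.5 and 56.4 CPM in muscle replicates 1 to 3 against 15.9, 10.8 and 10.1 in epithelium replicates 1 to 3. The lowest muscle library was above the highest epithelial one, and the log2 fold change was 1.80 ± 0.32 (SE, edgeR adjusted p = 0.0073). Hoxa3, needed for the thymus and parathyroid, had 25.1, 26.4 and 31.7 CPM in muscle against 8.25, 8.68 and 6.38 in epithelium. Both groups were tight, with 27.8 ± 3.46 CPM (SD, n = 3) against 7.77 ± 1.22, and the log2 fold change was 1.84 ± 0.28 (edgeR adjusted p = 0.0035). Of its exon bases 27.1% also belong to other annotated genes, antisense RNAs among them. Hoxa4 had 19.7, 10.2 and 25.7 CPM in muscle against 3.05, 4.67 and 1.58 in epithelium. The fitted log2 fold change was 2.59 ± 0.53 (edgeR adjusted p = 0.014), and its call was lost without muscle replicate 1, muscle replicate 3 or epithelium replicate 3, at an adjusted p of up to 0.0995.

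Hoxa5, the next gene of the cluster, did not pass the test. It had 11.7, 16.8 and 35.8 CPM in muscle against 8.04, 22.4 and 3.68 in epithelium, which is a log2 ratio of muscle over epithelium of 0.92 ± 0.65 (edgeR adjusted p = 0.55). Its highest epithelial value was in replicate 2, the epithelial library with the most mesenchymal marker counts, whose part in it was not tested. Without epithelium replicate 2 the adjusted p of Hoxa5 still missed the threshold, as it did in all 20 alternative settings (0.105 to 1).

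In the Hoxb cluster (chr11:96194316-96368256), genes 3, 4 and 5 were higher in muscle. Hoxb5 lies at chr11:96303336-96306121, Hoxb4 at chr11:96318267-96321638 and Hoxb3 at chr11:96323326-96347930, all on the plus strand. Hoxb5, which acts in lung branching and in enteric neural crest, had the largest fold change of the 6 called genes in that fit. It had 31.8, 21.1 and 49.1 CPM in muscle against 6.56, 2.74 and 1.01 in epithelium, which is a log2 ratio of muscle over epithelium of 3.29 ± 0.64 (edgeR adjusted p = 0.011). The lowest muscle library was above the highest epithelial one, and without epithelium replicate 2 its adjusted p was 0.053. Hoxb3 had 14.8, 18.2 and 20.2 CPM in muscle against 5.68, 7.21 and 6.90 in epithelium, so that the log2 ratio of muscle over epithelium was 1.43 ± 0.32 (edgeR adjusted p = 0.023). Antisense RNA Hoxb3os shares 52.9% of its exon bases, and unstranded reads there cannot be assigned. Hoxb4, known from the expansion of blood stem cells, had 16.3, 22.3 and 25.2 CPM in muscle against 7.17, 11.4 and 6.83 in epithelium, so that the log2 ratio of muscle over epithelium was 1.33 ± 0.34 (edgeR adjusted p = 0.039). It was the called member nearest the threshold and kept its call without epithelium replicate 2 but in none of the other 5 fits that each left out a library (adjusted p up to 0.20). Hoxb3 kept its call without muscle replicate 2 and without epithelium replicate 2 only, with an adjusted p of up to 0.155 in the other 4.

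The first 2 genes of this cluster were not on the muscle side. Hoxb2 had the most CPM of all members in epithelium, with 67.9, 37.1 and 49.1 CPM there and 23.5, 26.9 and 55.2 in muscle. Muscle replicate 3 lay within the epithelial range, 27.3% of the exon bases are shared with antisense Hoxb3os, and the log2 fold change was -0.54 ± 0.37 (edgeR adjusted p = 0.53). Hoxb1, a regulator of hindbrain identity, had 8.97, 4.21 and 4.43 CPM in epithelium, 0.19 and 4.99 in muscle replicates 1 and 2 and no count in muscle replicate 3, which allows up to 0.0758 CPM. Only muscle replicate 2 overlapped with epithelium. It has many background counts, as have epithelium replicates 2 and 3. The log2 fold change was -1.77 ± 1.68 (edgeR adjusted p = 0.74) with all libraries and -5.97 (adjusted p = 0.0425) without muscle replicate 2. That setting changed the call. The part of background counts in the Hoxb1 counts of muscle replicate 2 (100) and of epithelium replicates 2 and 3 (63 and 118) was not tested.

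**Figure D3:**
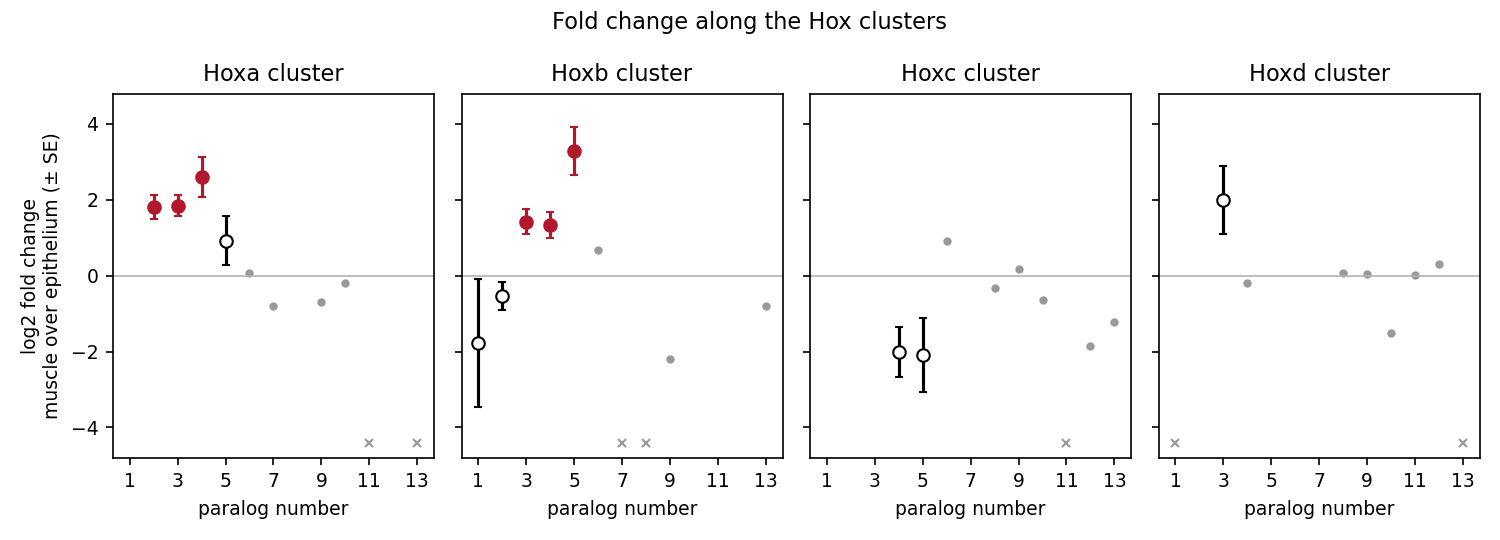
Log2 fold change of muscle over epithelium (vertical axis, ± SE for 12 genes of at least 5 CPM) against the paralog number in each of the 4 clusters, red where edgeR's adjusted p was under 0.05, open where it was not, grey points for tested genes of lower level and crosses for genes with too few counts. In the Hoxa and Hoxb panels numbers 3 to 5 lie above 0, and in the Hoxc panel numbers 4 and 5 lie near -2.

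Hoxc4 (chr15:103018934-103036852) and Hoxc5 (chr15:102967443-103017429) had log2 fold changes under 0 and did not pass the test. Hoxc4 had 2.66, 2.59 and 2.88 CPM in muscle against 17.9, 3.87 and 10.9 in epithelium. All libraries of one group lay on one side of the other, and the log2 fold change of -2.01 ± 0.65 missed the threshold (edgeR adjusted p = 0.093), the nearest member outside it. It passed in 5 of 20 alternative settings, among them DESeq2 (adjusted p = 0.0095) and the fit without epithelium replicate 2 (0.016). Hoxc5 had 2.05, 1.496 and 1.87 CPM in muscle against 18.1, 1.60 and 3.53 in epithelium. The groups overlapped, and its mean in epithelium rested on replicate 1, with 973 counts, against 24 and 94 in replicates 2 and 3. Without epithelium replicate 1 its log2 fold change was -0.49 (edgeR adjusted p = 0.89). With all libraries the change of -2.10 ± 0.97 on the log2 scale missed the threshold (edgeR adjusted p = 0.26). Epithelium replicate 1 was the library with the most counts and the least background.

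Hoxd3 (chr2:74711927-74748442) was the only member of its cluster to reach 5 CPM. It had 4.48, 8.33 and 5.53 CPM in muscle against 1.02, 2.74 and 0.86 in epithelium. All libraries of one group lay on one side of the other, and the change of 1.99 ± 0.89 on the log2 scale missed the threshold (edgeR adjusted p = 0.24). Of its exon bases 62.8% are shared with other annotated genes, Hoxd4 among them. All 3 paralogs numbered 3 thus had each muscle library above each epithelial one, as had 16.4% of all genes tested. The summed level of number 3 was 51.6 ± 6.59 CPM (SD, n = 3) in muscle against 15.9 ± 2.39 in epithelium.

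Summed over paralogs, muscle and epithelium differed in how Hox counts were divided between numbers. Numbers 3 to 5 took 58.8% ± 4.7 (SD, n = 3) of all Hox counts in muscle and 36.2% ± 5.5 in epithelium, with no overlap between libraries. Number 2, which sums Hoxa2 and Hoxb2, took 29.7% ± 6.1 and 37.2% ± 9.4 and overlapped. By cluster, Hoxa genes summed to 122 ± 33.5 CPM in muscle against 53.1 ± 13.8 in epithelium, Hoxb genes to 113 ± 34.9 and 80.3 ± 17.0, Hoxc genes to 12.4 ± 10.6 and 29.6 ± 5.69 and Hoxd genes to 12.5 ± 11.9 and 8.39 ± 7.14. The Hoxa and Hoxc sums did not overlap and the Hoxb and Hoxd sums did. In muscle replicate 2 the Hoxc sum was 24.5 CPM, against 6.53 and 6.01 in the other muscle libraries. In epithelium replicate 1 it was 36.0 CPM, with 17.9 of Hoxc4 and 18.1 of Hoxc5. Epithelium replicate 2 had 27.45 CPM, with 3.87 of Hoxc4, 1.60 of Hoxc5, 8.48 of Hoxc8 and 8.55 of Hoxc13. Epithelium replicate 3 had 25.3 CPM, with 10.9 of Hoxc4 and 3.53 of Hoxc5. The part of background counts in the Hoxc sums was not tested. These groupings were made with the values known and carry no test.

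Ratios between neighbouring genes within a library do not depend on its depth or scaling. Hoxb2 counts were 1.59, 1.48 and 2.74 times those of Hoxb3 in muscle replicates 1 to 3 and 11.9, 5.14 and 7.11 times in epithelium. Both genes share exon bases with antisense Hoxb3os (27.3% and 52.9%). Within the Hoxb cluster the sign of the log2 fold change turned between these 2 genes, of which Hoxb2 was not called. Hoxa2 over Hoxa3 and Hoxb3 over Hoxb4 overlapped between the groups, with mean log2 ratios that differed by -0.05 and 0.08. Of 9 neighbouring pairs, 4 did not overlap, each with p = 0.10 in an exact two-sided permutation test of log2 ratios (1 count added), the smallest that 3 against 3 allows (0.225 adjusted over the 9). Hoxa4 over Hoxa5 and Hoxb4 over Hoxb5 were among the pairs that did not overlap. The share of such pairs among other neighbouring genes was not computed.

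**Figure D4:**
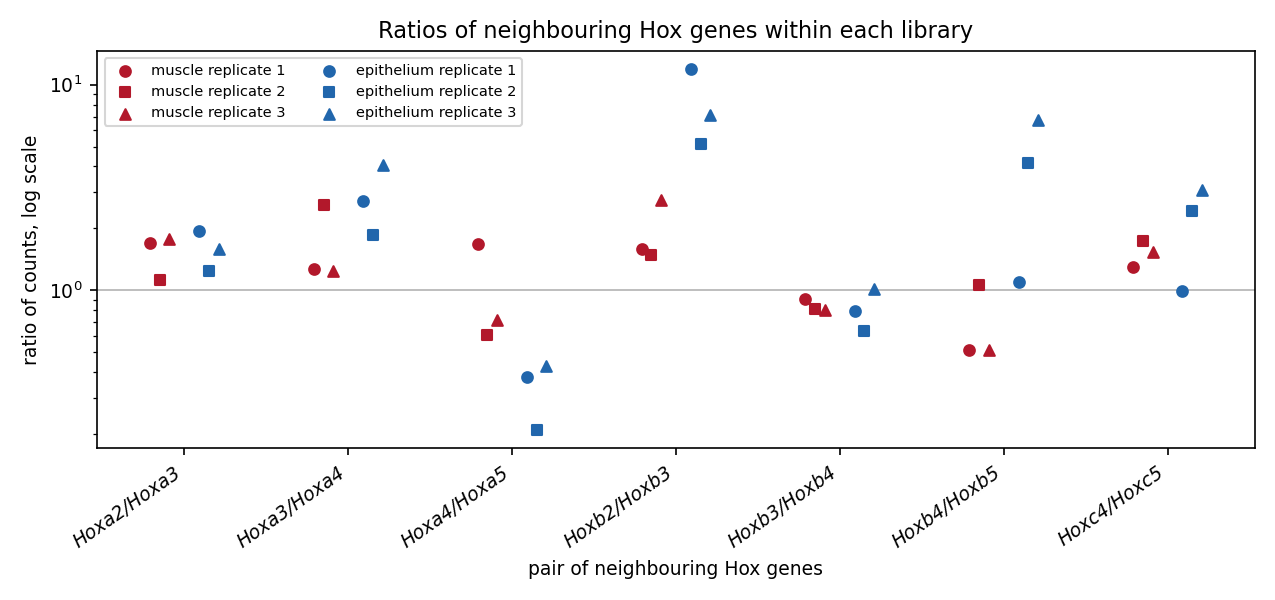
Ratio of counts of neighbouring Hox genes within each library (vertical axis, log scale), red for muscle and blue for epithelium, with symbols for replicates and a grey line at equal counts. Of the 9 pairs 7 are drawn; Hoxb1 over Hoxb2 is left out because muscle replicate 3 had no Hoxb1 count. Hoxb2/Hoxb3 lies from 1.48 to 2.74 in muscle and from 5.14 to 11.9 in epithelium.

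Levels of different genes were compared per kilobase of all annotated exons (GENCODE M21, GRCm38). In muscle Hoxa2 was highest, with 24.2 ± 7.58 CPM per kilobase (SD, n = 3). Hoxb5 (12.2 ± 5.08), Hoxa4 (11.6 ± 4.89), Hoxa5 (11.4 ± 6.75), Hoxb2 (10.1 ± 4.99) and Hoxb4 (8.28 ± 1.77) followed in CPM per kilobase and differed from each other by less than their spread. In epithelium Hoxb2 was highest, with 14.7 ± 4.45 CPM per kilobase, ahead of Hoxa2 (6.91 ± 1.80), Hoxa5 (6.07 ± 5.23) and Hoxc4 (4.24 ± 2.74), which again lay within their spread of each other. Hoxa3 (4.61 ± 0.575 in muscle) and Hoxb3 (4.17 ± 0.641) came after these in CPM per kilobase.

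Markers of other cells in the epithelial sort were read as a percentage of their muscle mean, over markers with a mean of at least 10 CPM there. The median smooth muscle marker stood at 0.93%, 1.99% and 0.82% in epithelium replicates 1 to 3, and the median fibroblast or mesenchyme marker at 4.47%, 21.4% and 3.96%. Cartilage markers had medians of 20.2%, 44.2% and 16.7% and endothelial markers of 3.28%, 34.2% and 15.2%. Neural crest, neural and glial markers had medians of 33.6%, 57.5% and 12.7%. Few endothelial and few neural crest, neural and glial markers reached 10 CPM in muscle. In all 3 libraries the latter median was the value of 1 marker, between 1 called higher in muscle and 1 called higher in epithelium. Hoxa2 stood at 37.2%, 25.1% and 23.5% of its muscle mean, Hoxa3 at 29.7%, 31.3% and 23.0%, Hoxa4 at 16.4%, 25.2% and 8.5%, Hoxb3 at 32.1%, 40.7% and 39.0% and Hoxb4 at 33.7%, 53.7% and 32.1%. These 5 genes stood above the smooth muscle and fibroblast medians in all 3 libraries. Hoxa4 stood under the cartilage median in all 3 libraries, and Hoxa2, Hoxa3 and Hoxb3 stood under it in replicate 2. The endothelial median was above Hoxa2, Hoxa3 and Hoxa4 in replicate 2 and above Hoxa4 in replicate 3. The neural crest, neural and glial median was above all 5 genes in replicate 2. It was above Hoxa3, Hoxa4 and Hoxb3 in replicate 1 and above Hoxa4 in replicate 3. The part of such cells in the Hox levels of epithelium was not tested. Hoxb5 stood at 19.3%, 8.0% and 3.0%, under the fibroblast and mesenchyme median in replicates 2 and 3. In the muscle libraries epithelial markers, read the same way, had medians of 0.24% to 0.89% of their epithelial mean, where Hoxc4 stood at 23.8% to 26.4%.

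Most genes of the Hox cofactors were higher in muscle. Of 9 cofactor genes 5 were higher in muscle (55.6%, against 6.58% of all genes) and none in epithelium by edgeR and limma-voom. All 9 had an unadjusted p under 0.05 in edgeR, with Pbx4 towards epithelium. The groups did not overlap in any of the 9, beside 26.9% of all genes tested. The median log2 fold change of the list was 1.26, beside -0.10 over all genes tested. Meis1, whose protein joins Hox proteins on DNA, had 864, 430 and 692 CPM in muscle against 119, 125 and 104 in epithelium. That was a log2 fold change of 2.51 ± 0.31 (edgeR adjusted p = 0.0013). Muscle replicate 2, the muscle library with the least Actg2, was the lowest of its group and still above all epithelial libraries.

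Pbx3 (2.15 ± 0.37, edgeR adjusted p = 0.0068), Meis2 (1.74 ± 0.33, adjusted p = 0.010) and Pknox2 (1.25 ± 0.28, adjusted p = 0.022) were also higher in muscle on the log2 scale. Pknox2 had 44.1, 42.1 and 50.5 CPM in muscle against 12.7, 22.9 and 22.1 in epithelium, and passed without muscle replicate 2 or epithelium replicate 2 but not without any 1 of the other 4 libraries (adjusted p up to 0.069). Meis3 (1.26 ± 0.39, edgeR adjusted p = 0.081), Pknox1 (0.85 ± 0.27, 0.082) and Pbx2 (0.73 ± 0.30, 0.19) did not pass. Pbx4 had a lower mean in muscle, with 3.45 ± 1.34 CPM (SD, n = 3) there and 8.99 ± 2.33 in epithelium, and did not pass either (edgeR adjusted p = 0.20). DESeq2 called Pbx4 higher in epithelium.

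**Figure D5:**
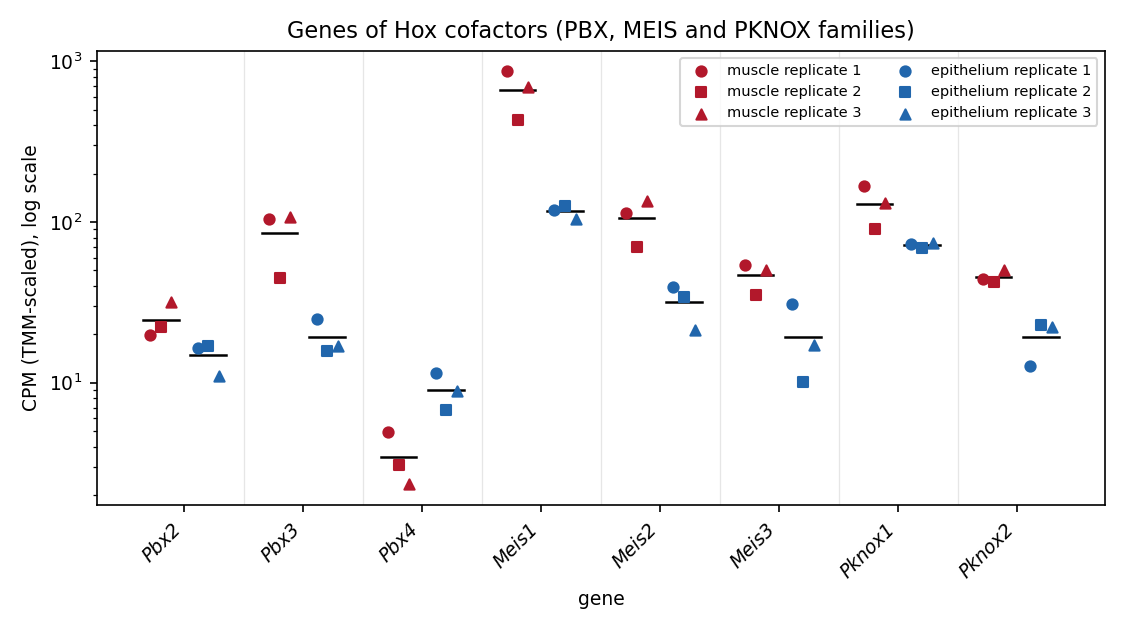
CPM (vertical axis, log scale) of 8 of the 9 genes of Hox cofactors in each muscle (red) and epithelium (blue) library, with black lines at the group means. Muscle lies above epithelium without overlap in 7 genes, with Meis1 at 430 to 864 CPM against 104 to 125, and below it in Pbx4. Of all genes tested, 16.4% and 10.5% did not overlap in these directions.

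Among 20 factors that act upstream of Hox genes, 18 were tested; 2 passed towards muscle (11.1%, beside 6.58% of all genes tested) and 1 towards epithelium (beside 4.11% of all). Aldh1a2, the enzyme that makes retinoic acid in mesoderm, had 97.4, 40.6 and 50.9 CPM in muscle against 6.30, 10.5 and 6.83 in epithelium, which is a log2 ratio of muscle over epithelium of 3.01 ± 0.39 (edgeR adjusted p = 0.0018). Crabp1, which binds retinoic acid in the cytosol, had 315, 333 and 363 CPM in muscle against 41.0, 65.7 and 9.68 in epithelium (3.12 ± 0.58, edgeR adjusted p = 0.0096). Crabp1 passed in 18 of 20 alternative settings. Among those it missed was the one with a covariate for background counts (edgeR adjusted p = 0.082). Egr2, a zinc finger factor that activates Hoxa2 and Hoxb2 in the hindbrain and is also an immediate early gene, had 28.6, 39.1 and 34.5 CPM in muscle against 206, 220 and 218 in epithelium. The fitted log2 fold change was -2.66 ± 0.24 (edgeR adjusted p = 0.00041). Hoxa2 was higher in muscle and Hoxb2 did not pass, and the part of Egr2 in their levels was not tested. Cdx1, Cdx2 and Cdx4, activators of high-numbered Hox genes in the trunk, reached at most 1.201, 3.09 and 0.80 CPM, each in a library with many background counts, and Cdx2 and Cdx4 did not pass (edgeR adjusted p = 0.93 for both).

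Of 29 Polycomb genes 2 passed towards muscle, a share of 6.9% that lies near the 6.58% of all genes. Another 2 passed towards epithelium, beside 4.11% of all genes tested. Cbx6 (1.44 ± 0.26, edgeR adjusted p = 0.0084) and Phf1 (1.59 ± 0.32, adjusted p = 0.013) were higher in muscle on the log2 scale. Pcgf6 had 5.01, 5.74 and 7.07 CPM in muscle against 48.7, 38.2 and 22.1 in epithelium (-2.61 ± 0.35, edgeR adjusted p = 0.0019), and Pcgf5 followed (-2.39 ± 0.64, adjusted p = 0.045). The call of Cbx6 was lost without epithelium replicate 3 (adjusted p = 0.057). Phf1 lost its call without muscle replicate 1, muscle replicate 3 or epithelium replicate 3 (up to 0.069), and Pcgf5 without any 1 of these or of epithelium replicate 2 (up to 0.15). Pcgf5 and Pcgf6 encode subunits of variant Polycomb repressive complexes. Ezh2, the methyltransferase of the complex that marks silent Hox genes, had 63.9 ± 14.4 CPM (SD, n = 3) in muscle against 90.7 ± 28.0 in epithelium (-0.51 ± 0.30, edgeR adjusted p = 0.42).

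None of 18 trithorax and H3K27 demethylation genes passed in edgeR or limma-voom, beside 10.7% of all genes tested in edgeR. Of the 18, 1 had an unadjusted p under 0.05 in edgeR, and DESeq2 called 2 (Mllt3 and Wdr5) higher in epithelium. Kmt2a, which keeps Hox genes active, had 67.1 ± 9.02 CPM (SD, n = 3) in muscle against 48.4 ± 8.59 in epithelium (0.47 ± 0.24, edgeR adjusted p = 0.31). Kdm6b, a demethylase that removes the Polycomb mark, had 74.9 ± 34.7 and 59.5 ± 22.8 CPM (0.33 ± 0.39, edgeR adjusted p = 0.82).

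The genes next to the clusters showed no common change. The table holds 10 genes inside the clusters other than members, none above 6.38 CPM in any library. Only Hotair and Hoxd3os1 of them could be tested, neither was called in edgeR, DESeq2 or limma-voom and neither had an unadjusted p under 0.05. Hotair, a noncoding RNA of the Hoxc cluster, had 6.38, 3.54 and 3.41 CPM in muscle replicate 2 and epithelium replicates 2 and 3, the libraries with many background counts, and 0 to 0.15 in the other 3. Of the 16 nearest protein-coding genes, 2 on each side of each cluster, 15 were tested and 1 was called, beside 10.7% of all genes tested. The called gene, Calcoco1, 198.9 kb from the Hoxc cluster, had 106.5 ± 34.9 CPM (SD, n = 3) in muscle against 46.2 ± 4.42 in epithelium, a log2 fold change of 1.21 (edgeR adjusted p = 0.030). It passed without muscle replicate 2 but not without any 1 of the other 5 libraries (adjusted p up to 0.15).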

How the data were processed

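RNA of 6 sorted libraries (SMART-Seq v4 and Nextera XT, per the labels' protocols) was analysed from the deposited table of whole-number counts per gene symbol, 1 column per library. The submitters' processing notes name Trim Galore, Bowtie2, Cufflinks, DESeq and the build mm10; the counting program, annotation and strand setting are not given in the sources used here. Counts on genes that overlap on either strand are therefore uncertain.

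Genes passing edgeR's filterByExpr (19375 of 23478) were tested with its quasi-likelihood test (edgeR 4.0.16, R 4.3.3, robust, TMM scaling, two-sided, Benjamini-Hochberg over all genes tested, threshold 0.05). CPM are counts scaled to a common library size with TMM factors, and 3 counts per library are the floor. Positions and exon lengths come from GENCODE M21 (GRCm38), promoters from RefSeq (GRCm38.p6). On simulated counts the test was checked against known changes. The alternatives were DESeq2 1.42.0, limma-voom (limma 3.58.1), other scalings, filters and thresholds, halved counts, a covariate for background counts, a replicate block and leaving out libraries.

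The Hox genes and gene lists were chosen with earlier results of these data known. Values in every library were given for each Hox gene past the threshold or with a mean of at least 5 CPM in a population. In other lists up to 4 called genes per direction with the largest change and an average log2 CPM of at least 2 were to be named, with Pbx2, Pbx3, Meis1, Meis2, Ezh2, Kmt2a and Kdm6b. Marker lists are given by counts alone. Some genes of the lists are not reported here. Meis3, Pknox1, Pbx4, Cdx1, Cdx2, Cdx4, Mllt3, Wdr5, Hotair and Calcoco1, the neighbour ratios and the paralog sums were added after values were seen. Hoxb1, Hoxb5, Hoxc5 and Hoxd3 had as few as 0, 27, 24 and 23 counts in a library, where counting error adds to the spread.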

Additional observations from a re-analysis of the deposited data

How the results depend on the processing

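The direction of the 13 described Hox genes held in all 20 alternative settings. The 6 Hox genes higher in muscle became 2 at an adjusted p under 0.01, 3 with a replicate block and a covariate for background counts, 3 over only the 3 libraries with few background counts, and 3 to 5 without 1 library. The 0 higher in epithelium became 1 with DESeq2, 1 with the covariate, 2 without both libraries numbered 2 and 3 over the 3 libraries with few background counts, and stayed at 0 to 1 without 1 library. Cofactor genes higher in muscle went from 5 to 3 at an adjusted p under 0.01 and ranged from 4 to 6 without 1 library. All genes called went from 2071 to 3539 with DESeq2, 983 at an adjusted p under 0.01 and 3178 with the header identifier as a term. That term set the libraries numbered 2 apart from those numbered 1 and 3. Without 1 library, all genes called ranged from 1169 (without epithelium replicate 3) to 2573 (without muscle replicate 2). The cause of these moves was not tested. Kdm6b, which was not called, ranged from -0.10 (without muscle replicate 3) to 0.67 without 1 library and was -0.11 over the 3 libraries. With library totals alone the median log2 fold change of all genes was -0.33, not -0.10, and 42.1% rather than 61.5% of calls were higher in muscle; 4 Hox genes then passed. The 19 tested Hox genes of lower level were called in no setting and 18 changed sign in some, so no fold change is given for them. Same-numbered libraries deviated from their group means with correlations of 0.59, 0.73 and -0.57 (replicates 1 to 3) over all 19375 genes tested. Among the 4122 genes with log2 CPM from 6 upwards these were 0.17, 0.15 and -0.17. Such correlations cannot decide whether the numbers are pairs, because they shrank without the genes of lower level. The shared header identifiers leave pairing possible for replicates 1 and 2, and the main test did not use it. With the replicate block 4 Hox genes, 7 cofactor genes and 2418 of all genes were called. Hoxa4 and Hoxb4 then missed the threshold (edgeR adjusted p = 0.055 and 0.051). The settings that split libraries by header identifier or background were chosen after seeing the data.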
